A study of Ovis aries with 3 samples.

Results

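Among the RNA of extracellular vesicles shed by sheep conceptuses, the transcripts of the machinery that moves proteins through the endoplasmic reticulum (ER) and the Golgi apparatus were examined. Members were all rows of the deposited table whose symbol, without a numbered suffix, matched the SEC genes, SSR1 to SSR4, SPCS1 to SPCS3, the TMED genes, the coatomer genes COPA to COPZ, ARF1 to ARF6, the protein subunits of the signal recognition particle, or KDELR1 to KDELR3. Of the table's 25197 rows, 57 were members, and each was a single row with no numbered copies.

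A protein that is to be secreted is recognised by the signal recognition particle as it leaves the ribosome, and is then threaded into the ER through the SEC61 channel, where signal peptidase removes its signal sequence. Vesicles with a COPII coat carry the folded protein to the Golgi. Vesicles with a COPI coat, recruited by ARF GTPases, return escaped ER proteins and cargo receptors. The trophectoderm, the outer epithelium of the conceptus, is a secretory epithelium, known in ruminants for its release of interferon tau, the signal of pregnancy.

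The study had 1 group of 3 libraries and no control. Each library held RNA of vesicles from medium in which intact sheep conceptuses (the embryo with its membranes) of day 14 of pregnancy had been kept for 24 h. No breed, genotype or treatment distinguishes the libraries in the labels. Whether each came from a different ewe is not stated, and part of their spread may be technical. The medium contained 10% fetal bovine serum depleted of exosomes, and the vesicles were precipitated after filtration through 0.2 µm pores.

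The values are RPKM-type, that is, scaled for gene length and library depth, and were listed to 1 decimal. On such a scale a value of 1 stands for fewer reads in a short gene than in a long one. The same holds for the limit below which 0 is listed. Gene lengths were not used here, so this limit applies wherever different genes are set side by side. Summed values were 17480.7, 40060.3 and 9531.8 in libraries 1, 2 and 3, the highest 4.20 times the lowest, while the depth read from the U6 small nuclear RNA rows was 1.28 and 1.21 times that of library 2 in libraries 1 and 3. By those rows, a gene with 10 times the length of U6 and a value of 1 had an estimated 23.8, 18.6 and 22.5 reads. Listed at 0, such a gene had fewer than 1.19, 0.928 and 1.12 reads. Of the fixed trophectoderm markers, KRT8, TP-1 (interferon tau) and S100G were detected, 3 of the 8 with a row. GATA3, ELF5, TFAP2C and CDX2 were not detected, and GATA2 was listed at 0. KRT8, at 26.3, 138.9 and 27.3 in libraries 1, 2 and 3, made up most of the trophectoderm sums given below. Of the 6 uterine epithelium markers with a row, 4 were detected (LGALS15, CST6, FXYD4 and IGFBP1). No leukocyte marker of 6 and no erythroid marker of 4 was. Of the leukocyte markers, AIF1 stood at 0.3, 2.8 and 4.1 and CD74 at 1.5, 1.3 and 0.1 in libraries 1, 2 and 3, so each fell short in 1 library. Summed marker levels in libraries 1, 2 and 3 were 38.2, 178.8 and 37.8 for trophectoderm, 60.1, 167.4 and 9.6 for uterine epithelium, 2.2, 5.9 and 4.8 for leukocytes and 0.9, 1.4 and 0.8 for erythroid cells. As deposited, library 2, which had the highest summed value, was highest on each of these lists, as it was for most members. The marker sums were not taken as shares of each library's sum, so this order does not compare the libraries' composition. The part of these cell types in the members' levels was not tested. Conceptus cell RNA was not analysed here, so sorting into vesicles cannot be told apart from abundance in the cells.

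Signal peptidase, the TRAP complex, the SEC61 channel and the ARF GTPases gave most of the members that were present throughout. Detected means here that every one of the 3 libraries reached a value of at least 1. This held for 13 of the 57 members (22.8%), against a background of 3.89% of all rows and 3.65% of the 15190 rows with an HGNC symbol. In at least 2 libraries 18 members reached it, against 9.02% of all rows. Another 11 did so in only 1 library and 28 in none. In libraries 1, 2 and 3, 18, 28 and 14 of the 57 members reached 1, beside 2360, 3428 and 1985 of the 25197 rows. Most rows of the table thus reached it in no library. With a value of 0.5 or of 2 in place of 1, 16 and 7 members were detected, against 7.56% and 1.89% of all rows. Leaving out library 1, 2 or 3 gave 13, 13 and 18 members, against 5.06%, 4.45% and 7.29% of all rows. After rescaling the libraries to an equal sum, 15 members were detected, against 4.25%. SEC16A, SEC23A and COPZ2 were listed at 0 in all 3 libraries, where 11.7% of rows with an HGNC symbol were. No test was made on these counts, because there is no other group and the members were chosen with results of these data known.

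**Figure D1:**
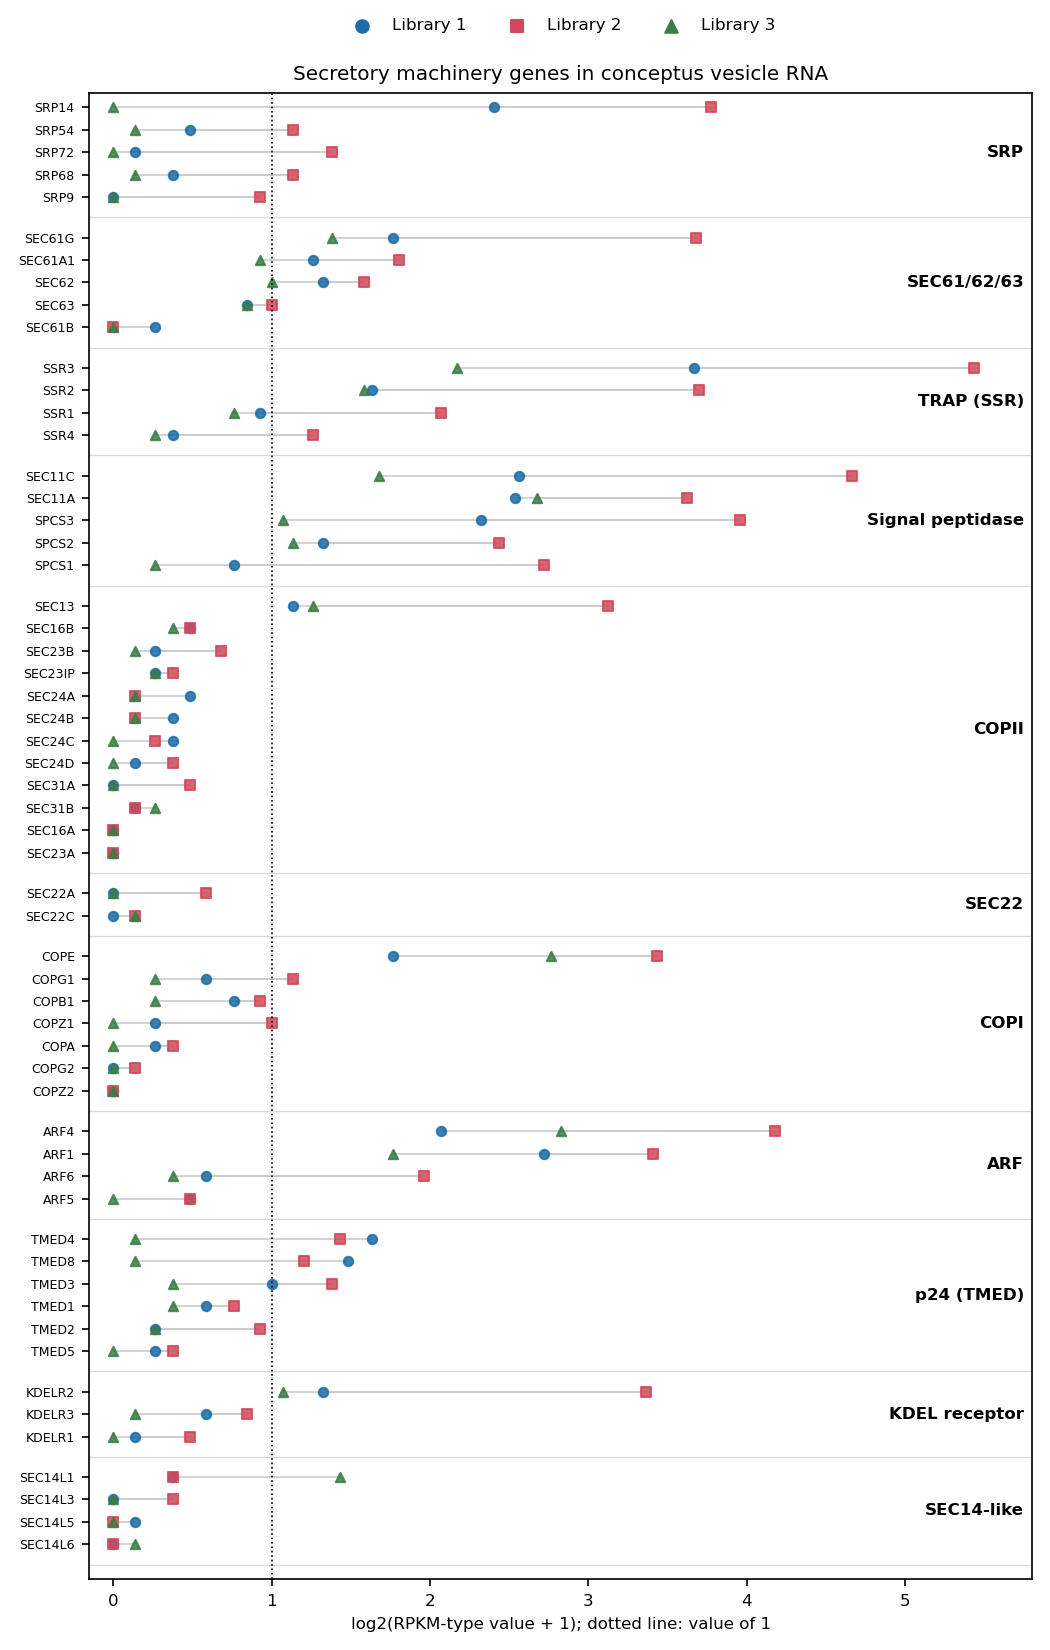
Level of each of the 57 members, as log2(RPKM-type value + 1) on the horizontal axis, in libraries 1 (circles), 2 (squares) and 3 (triangles), grouped by role and ordered by mean within a role, with a dotted line at a value of 1. SSR3 reaches 42.3 in library 2, the highest value of any member, while most COPII, COPI and SEC14-like genes lie left of the line in every library.

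The signal recognition particle, which captures signal sequences, had no detected protein subunit among 5, where 3.89% of all rows were detected. SRP14, part of the domain that slows translation, stood at 4.3, 12.7 and 0 in libraries 1, 2 and 3 (mean 5.67 ± 6.46, SD, n = 3). It was thus among the higher members in libraries 1 and 2 and listed at 0 in library 3. Its partner SRP9, with which it forms a heterodimer, was at 0, 0.9 and 0. SRP54, the GTPase that binds the signal sequence, stood at 0.4, 1.2 and 0.1. SRP72 and SRP68, which bind each other on the particle's RNA, had 0.1, 1.6 and 0 and 0.3, 1.2 and 0.1. All 5 subunits were highest in library 2, and the 5 together took 0.0292%, 0.0439% and 0.0021% of the sums of libraries 1, 2 and 3. Of the receptor that docks the particle at the ER, the companion genes SRPRB and SRPR stood at 1.4, 7.6 and 0 and at 0.1, 0.9 and 0.3.

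The channel through which chains enter the ER was represented by SEC61G and SEC62. SEC61G, the small gamma subunit, stood at 2.4, 11.8 and 1.6 in libraries 1, 2 and 3 (mean 5.27 ± 5.67, SD, n = 3). Library 2 was far above the others, which lay close together. SEC62, an accessory protein for chains that enter after translation, varied least among the detected members, with 1.5, 2 and 1 (mean 1.5 ± 0.5, SD, n = 3). SEC61A1, the subunit that forms the pore, stood at 1.4, 2.5 and 0.9 and missed detection in library 3 alone. SEC63, which couples the channel to the chaperone BiP, was nearly level at 0.8, 1 and 0.8. SEC61B, the beta subunit, was at 0.2, 0 and 0. The subunits of the channel's core assemble in equal numbers as proteins, but their listed values differed. SEC61G was 1.71, 4.72 and 1.78 times SEC61A1 in libraries 1, 2 and 3, and SEC61B was below both in every library. In libraries 1 and 3 the ratios rest on 2.4 against 1.4 and 1.6 against 0.9, where counting error is large. How reads were assigned is not given in the sources used here, and no difference between the subunits was tested.

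The translocon-associated protein (TRAP) complex, which assists chains at the channel, included the highest member. SSR3, its gamma subunit, stood at 11.7, 42.3 and 3.5 in libraries 1, 2 and 3 (mean 19.2 ± 20.4, SD, n = 3). It was above 99.4%, 99.5% and 98.3% of all rows in the respective libraries. SSR2, the beta subunit, had 2.1, 12 and 2 (mean 5.37 ± 5.74, SD, n = 3) and was also detected. SSR1, the alpha subunit, had 0.9, 3.2 and 0.7, and SSR4, the delta subunit, 0.3, 1.4 and 0.2, so that each reached 1 in library 2 alone. The order SSR3, SSR2, SSR1, SSR4 held in each of the 3 libraries. SSR3 was 5.57, 3.52 and 1.75 times SSR2, and 13, 13.2 and 5 times SSR1.

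Signal peptidase, the enzyme that cuts off signal sequences, was the most completely represented complex, with 4 of 5 subunits detected and all 5 at a mean above 1. SEC11C, one of its alternative catalytic subunits, stood at 4.9, 24.4 and 2.2 in libraries 1, 2 and 3 (mean 10.5 ± 12.1, SD, n = 3). SEC11A, the other catalytic subunit, had 4.8, 11.3 and 5.4 (mean 7.17 ± 3.59, SD, n = 3). The pair changed places between libraries: SEC11C was 1.02, 2.16 and 0.407 times SEC11A. As paralogs they could exchange reads, and how reads were assigned is not given in the sources used here. SPCS3, a noncatalytic subunit, stood at 4, 14.5 and 1.1 (mean 6.53 ± 7.05, SD, n = 3). SPCS2 had 1.5, 4.4 and 1.2 (mean 2.37 ± 1.77, SD, n = 3). SPCS1, the smallest subunit, was at 0.7, 5.6 and 0.2 and reached 1 in library 2 alone. Together the 5 subunits took 0.0910%, 0.150% and 0.106% of the sums of the libraries.

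**Figure D2:**
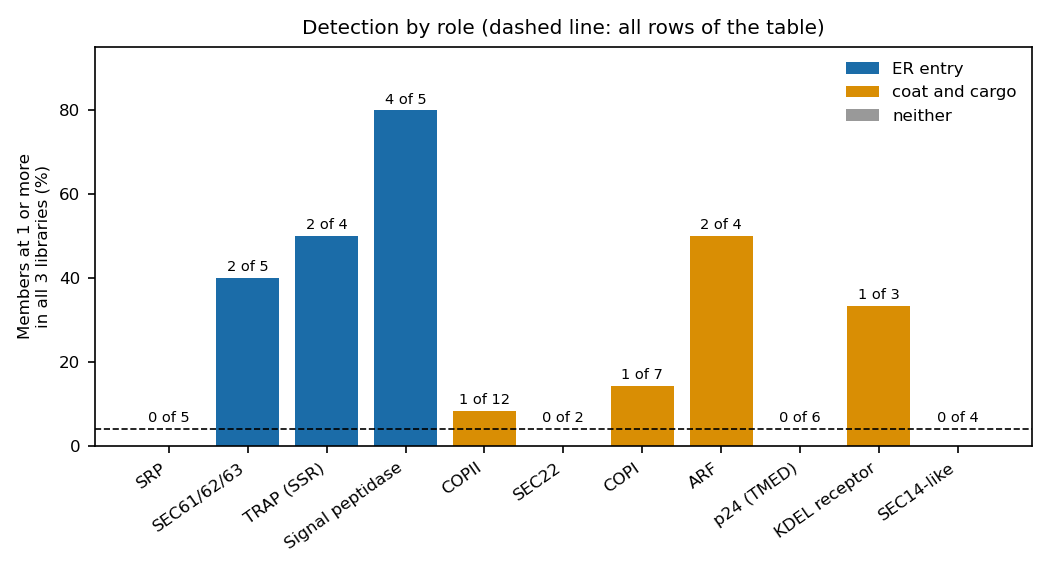
Share of the members of each role that reached 1 in every library (bars, percent, with the counts above), beside the 3.89% of all rows that did (dashed line). Signal peptidase has 4 of 5 members above the threshold, TRAP and ARF 2 of 4 each, COPII 1 of 12, and the SRP, SEC22, p24 and SEC14-like genes none.

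The COPII coat, which buds vesicles from the ER, was at the low end of the members, with a median gene mean of 0.167. Of its 12 genes 1 was detected (8.33%), against 3.89% of all rows. That gene was SEC13, a scaffold of the outer coat that also serves in the nuclear pore, at 1.2, 7.7 and 1.4 in libraries 1, 2 and 3 (mean 3.43 ± 3.70, SD, n = 3). SEC31A and SEC31B, its partners in the outer coat, were at 0, 0.4 and 0 and at 0.1, 0.1 and 0.2. Of the inner coat, SEC23B stood at 0.2, 0.6 and 0.1 and SEC23A at 0. The cargo-binding SEC24A, SEC24B, SEC24C and SEC24D lay between 0 and 0.4 in every library. SEC16B, which marks ER exit sites, had 0.4, 0.4 and 0.3, second in mean among the COPII genes, and its relative SEC16A was at 0. SEC23IP, a binding partner of SEC23, had 0.2, 0.3 and 0.2. Outside the rule, the companion GTPase SAR1A, which starts assembly of this coat, was detected at 1.1, 10.7 and 3.5, and SAR1B stood at 0.5, 1.2 and 0. The SEC22 members SEC22A and SEC22C stood at 0, 0.5 and 0 and at 0, 0.1 and 0.1. SEC22B, the fusion protein of this family, had no member row and is given in the closing section.

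The COPI coat of retrograde vesicles likewise had a single detected gene among 7 (14.3%, against 3.89% of all rows). COPE, the epsilon subunit, stood at 2.4, 9.8 and 5.8 in libraries 1, 2 and 3 (mean 6 ± 3.70, SD, n = 3). It was the second highest of all members in library 3. COPG1, a gamma subunit, was next in mean at 0.5, 1.2 and 0.2, followed by the beta subunit COPB1 at 0.7, 0.9 and 0.2 and the zeta subunit COPZ1 at 0.2, 1 and 0. COPA, the alpha subunit, had 0.2, 0.3 and 0. The alternative subunits COPG2 and COPZ2 were at 0, 0.1 and 0 and at 0 throughout. COPE was above each other COPI member in all 3 libraries. The delta subunit ARCN1, from the companion list, stood at 2.3, 4.8 and 0.3.

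ARF GTPases, which recruit COPI and other coats to Golgi membranes, were detected in 2 of 4 cases. ARF4 stood at 3.2, 17.1 and 6.1 in libraries 1, 2 and 3 (mean 8.8 ± 7.33, SD, n = 3) and was the highest of all members in library 3. ARF1 had 5.6, 9.6 and 2.4 (mean 5.87 ± 3.61, SD, n = 3). The order of these genes was not fixed, since ARF4 was 0.571, 1.78 and 2.54 times ARF1. ARF6, which acts at the plasma membrane and in endosomes, stood at 0.5, 2.9 and 0.3, and ARF5 at 0.4, 0.4 and 0. ARF proteins are closely similar, and the division of reads among their genes is uncertain.

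Among the cargo receptors of the early pathway, KDELR2 alone was detected, and most rows of the table were likewise not detected. Of the p24 family, which helps to load cargo and shape coated vesicles, 0 of 6 genes with a row were detected, against 3.89% of all rows. Their median log2(value + 1) was 0.79, 1.06 and 0.20 in libraries 1, 2 and 3, against 0.14, 0.26 and 0.14 for rows with an HGNC symbol. TMED4 stood at 2.1, 1.7 and 0.1, TMED8 at 1.8, 1.3 and 0.1, and TMED3 at 1, 1.6 and 0.3. These 3 genes reached 1 in libraries 1 and 2 and fell short in library 3, and TMED4 and TMED8 were highest in library 1. TMED1, TMED2 and TMED5 lay between 0 and 0.9. TMED6, TMED7 and TMED10 had no member row, so the family was not covered whole. Among the KDEL receptors, which return escaped ER residents, KDELR2 was detected at 1.5, 9.3 and 1.1 (mean 3.97 ± 4.62, SD, n = 3). KDELR3 had 0.5, 0.8 and 0.1 and KDELR1 0.1, 0.4 and 0, so KDELR2 was the highest of the 3 receptors in each library.

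The rule also takes SEC14-like genes, which encode lipid-binding proteins outside the coats and the channel. None of the 4 was detected, against 3.89% of all rows. SEC14L1 stood at 0.3, 0.3 and 1.7 and was 1 of 3 members with a highest value in library 3 as deposited, beside SEC31B and SEC14L6 at 0.2 and 0.1. SEC14L3 and SEC14L5 lay between 0 and 0.3.

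Grouped by stage, the 19 genes of ER entry (signal recognition particle, channel, TRAP and signal peptidase) had higher medians than the 34 genes of coats and cargo (COPII, SEC22, COPI, ARF, p24 and KDEL receptors). Of the former 8 were detected (42.1%) and of the latter 5 (14.7%), against 3.89% of all rows. The median log2(value + 1) of ER entry was 1.26, 2.07 and 0.85 in libraries 1, 2 and 3, and that of coats and cargo 0.38, 0.54 and 0.14. The difference was 0.88, 1.54 and 0.71, above 0 in 3 of 3 libraries, with a mean of 1.04 ± 0.43 (SD, n = 3). Among members with a mean of 1 or more, 12 of ER entry and 8 of coats and cargo, the difference was 0.16 ± 0.24 (SD, n = 3). Of the ER entry genes 2 reached a value of 1 in no library, and of the coat and cargo genes 23. Most rows of the table also reached it in none. No p-value is given, since this is a score over chosen members. Gene lengths were not used, and their part in the difference between the stages was not tested. For all 57 members the median was 0.49, 0.93 and 0.14, a mean of 0.52 ± 0.40 (SD, n = 3), against 0.14, 0.26 and 0.14 for all rows with an HGNC symbol.

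**Figure D3:**
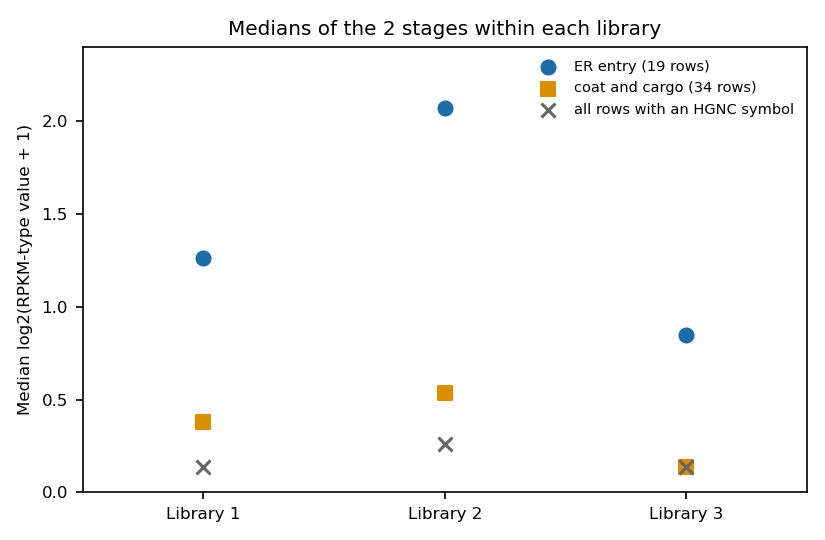
Median log2(RPKM-type value + 1) in each library of the 19 genes of ER entry (circles), of the 34 genes of coats and cargo (squares) and of all rows with an HGNC symbol (crosses). ER entry is highest in every library, at 1.26, 2.07 and 0.85, and coats and cargo meet the median of all such rows, 0.14, in library 3.

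Each of the 13 detected members was highest in library 2, as were 41 of the 57 members and 40.4% of rows with an HGNC symbol. Those rows include the 11.7% listed at 0 throughout. Library 2 was also highest for 71 of 78 companion genes and 41 of 62 rows named VPS, SNX or CHMP, so this was not particular to the members. The lead of library 2 followed the summed values, so each value was also taken as its share of the library's sum, per 10000. On this scale library 2 was highest for 7 of the 13, library 3 for 5 and library 1 for 1. No such count was made over all detected rows of the table. Over all 57 members library 3 was highest for 14, against 39.1% of rows with an HGNC symbol. COPE stood at 1.37, 2.45 and 6.08 per 10000 in libraries 1, 2 and 3, ARF4 at 1.83, 4.27 and 6.40, and SEC11A at 2.75, 2.82 and 5.67. These 3 genes took a larger share of library 3, the one with the lowest sum, than of the others. SSR3 took its smallest share in library 3, with 6.69, 10.6 and 3.67 per 10000. The same held for SEC11C with 2.80, 6.09 and 2.31 and for SPCS3 with 2.29, 3.62 and 1.15. In deposited values the leading members were SSR3, ARF1 and SEC11C in library 1, SSR3, SEC11C and ARF4 in library 2, and ARF4, COPE and SEC11A in library 3. All members together took 0.386%, 0.563% and 0.446% of the sums (mean 0.465% ± 0.090, SD, n = 3). With the 100 highest rows of the table left out, these shares were 0.683%, 1.14% and 0.585%. Library 3 thus stood above library 1 with all rows and below it without those 100. Shares of single genes were not recomputed without them, so the leads of library 3 given above hold for the full sum alone.

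**Figure D4:**
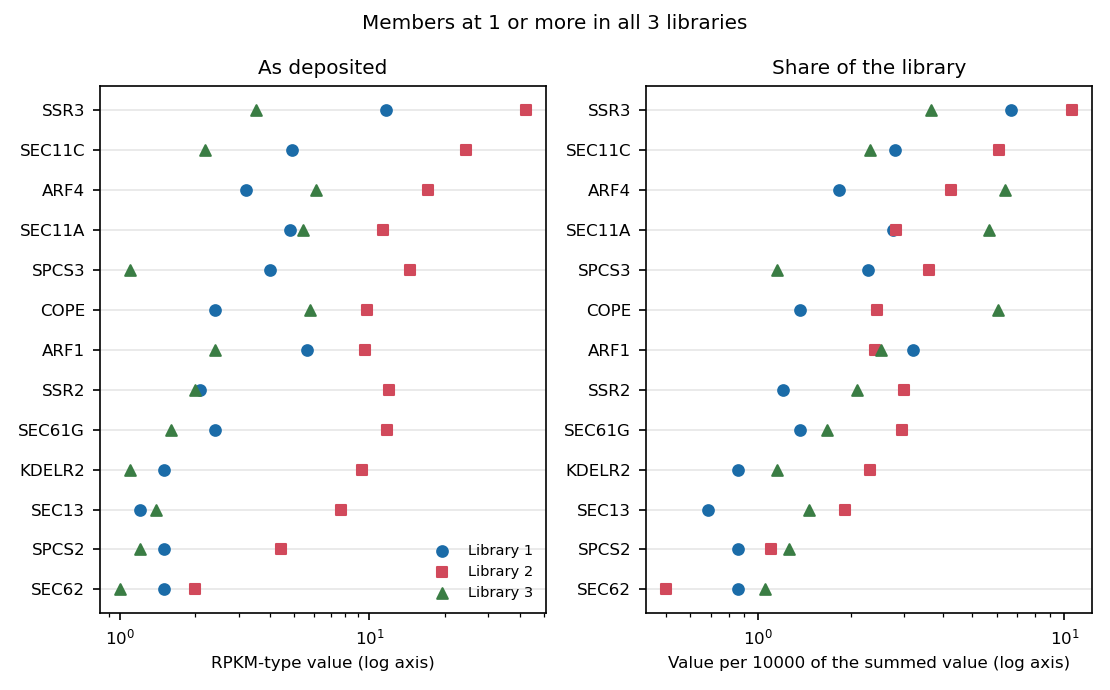
The 13 detected members, as deposited (left, RPKM-type value, log axis) and as value per 10000 of the library's summed value (right, log axis), with 1 symbol per library. As deposited, library 2 (squares) is highest for all 13; as shares, library 3 (triangles) is highest for ARF4, SEC11A, COPE, SPCS2 and SEC62.

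Several detected members were close to the upper end of the levels of genes that these cells should not use. The 170 olfactory receptor rows had a 99th percentile of 2.031, 1.486 and 2.324 in libraries 1, 2 and 3, and 2 of them met the detection rule (1.18%). Of the members, SSR3, ARF4, SEC11A, COPE and ARF1 exceeded that percentile in all 3 libraries, where 1.35% of rows with an HGNC symbol did. SEC11C, SPCS3, SSR2 and SEC61G exceeded it in libraries 1 and 2, and KDELR2, SEC13, SPCS2 and SEC62 in library 2 alone. For the last 4 genes, the values in libraries 1 and 3 lay below this percentile. They were above the mean of the olfactory rows, which was 0.23, 0.20 and 0.22 in libraries 1, 2 and 3. Against the 476 rows described as olfactory receptors, the percentile was 1.45, 1.025 and 1.75. By that cutoff KDELR2, SPCS2 and SEC62, each at 1.5, exceeded it in library 1.

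The order of the members was similar in the 3 libraries. Spearman's rho across the 57 members was 0.85 for libraries 1 and 2, 0.78 for 1 and 3 and 0.70 for 2 and 3, against 0.64, 0.49 and 0.43 across rows with an HGNC symbol. The points are genes, not replicates, and many values near 0 are tied: 10, 6 and 19 of the members were listed at 0 in libraries 1, 2 and 3. The difference between the members and the other rows was not tested.

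Other genes of the pathway, from a companion list of 89 symbols of which 78 had a row, were detected in 15 cases (19.2%), against the 3.89% of all rows. They included the lectin chaperone CALR (6.8, 22.6 and 8.7 in libraries 1, 2 and 3), the proline isomerase PPIB (6.9, 26.5 and 4) and the oligosaccharyltransferase subunit KRTCAP2 (7.8, 24.5 and 4.4). ERGIC2 of the ER-Golgi intermediate compartment stood at 5.4, 18 and 2.7, the GTPase RAB1A at 1.2, 14.8 and 4.8, and the oligosaccharyltransferase subunit OSTC at 2.8, 16.1 and 1.7. DAD1, another subunit of that enzyme, had 3, 16.6 and 0.6, and HSPA5, the ER chaperone BiP, 3.7, 14.7 and 0.1. The last 2 genes missed detection in library 3, and without library 3 the count of companion genes was 31, while the share of all rows was 7.29%. The companion list's median log2(value + 1) was 0.95 ± 0.83 (SD, n = 3). Genes of endosomal sorting (62 rows named VPS, SNX or CHMP) were detected in 3 cases (4.84%), close to the 3.89% of all rows, and the median of their log2(value + 1) came to 0.25 ± 0.21 (SD, n = 3). The secretory members had 13 of 57 and 0.52. The difference between these lists was not tested.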

How the data were processed

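RNA of extracellular vesicles from day 14 sheep conceptuses was sequenced in 3 libraries of 1 group, made from 5 ng of RNA with a SMART-Seq v4 kit and read as pairs of 50 bp, per the labels' protocols. The authors deposited 1 table of RPKM-type values per gene, rounded to 1 decimal; the file names no unit, and RPKM was inferred from the values, whose steps were larger for short genes. Per the submitters' processing notes, the build was Oar_v3.1. The aligner, counter and annotation are not given in the sources used. Columns were matched to libraries by title. Library depth was estimated from the 1012 U6 rows, whose values up to 3 lay on whole multiples of 1 step within 0.1 in 93.3%, 93.3% and 92.8% of cases, a wide tolerance. Counting error is large for values near 1, and no count model was fitted.

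The members and lists were chosen with earlier results of these data known. Detection needed a value of 1 in every library. Levels used log2(value + 1), which understates differences of low genes, with no filter. Named were the detected members, the 2 highest of each role, members above a mean of 1 that missed detection, those at 0 throughout, and the 8 highest companion genes; others were added to complete a complex. RefSeq (ARS-UI_Ramb_v3.0) was used for names alone: 55 of 57 members matched, and 9 matching symbols (ARF3, COPB2, SEC14L2, SEC22B, SEC61A2, SRP19, TMED6, TMED7 and TMED10) had no member row; of these, SEC22B alone is given, from a row with that description, in the closing section, and the others were not analysed here. Alternatives were other detection rules, pseudocounts, filters and scalings, and leaving out each library. Functions were tested on simulated data. Python 3.11.15, pandas 2.3.3, numpy 2.4.6, scipy 1.17.1 and matplotlib 3.10.9 were used.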

Additional observations from a re-analysis of the deposited data

How the results depend on the processing

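At a detection value of 2, 7 members and 7 companion genes were detected instead of 13 and 15; at 0.5 the counts were 16 and 22. Requiring 2 libraries gave 18 members and 35 companion genes. Leaving out 1 library gave 13 to 18 members and 15 to 31 companion genes, the highest of each without library 3, where the share of all rows was also highest (7.29%, against 5.06% and 4.45% without libraries 1 and 2). With libraries rescaled to the mean summed value the counts were 15 and 18 (4.25% of all rows), and with numbered copies summed they were 13 and 15. The median log2 level of the members was 0.52; it was -1.11 with a pseudocount of 0.1, -0.13 with 0.5, both by construction, 2.04 among members with a mean of 1 or more, and 0.31 to 0.71 with 1 library left out. The difference of ER entry minus coats and cargo was 1.04; it was 2.22 with a pseudocount of 0.1, 1.44 with 0.5, 1.13 after rescaling, and 0.80 to 1.21 with 1 library left out. Among members with a mean of 1 or more it was 0.16 ± 0.24 (SD, n = 3), smaller than its spread between libraries. The members' share of the sum was 0.465%, 0.416% to 0.505% with 1 library left out, and 0.804% without the 100 highest rows. Against the 476 rows described as olfactory receptors, an alternative chosen after seeing the data, 7 members and not 5 exceeded the 99th percentile in all 3 libraries. No paired analysis was possible because there was 1 group.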

Other observations

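Some genes of the pathway were near 0 in 1 library and well above it in another, by a rule chosen after the values were seen (0.1 or less in 1 library, 3 or more in another). Of the 15 members with a value of 3 or more, SRP14 alone met it (6.67%), in library 3. Of 34 companion genes with such a value 12 did (35.3%), near the 29.2% (284) of the 974 rows with an HGNC symbol that reached 3. Library 3 was low for 10 of the 12 and for 266 of the 284, so the companion genes shared this pattern with genes in general. The members met the rule less often than those rows, and this difference was not tested. The 12 companion genes included BiP (HSPA5), the disulfide isomerases PDIA3 and PDIA6, the oligosaccharyltransferase subunit RPN2 and the cargo receptor LMAN2. PDIA6 stood at 0.1, 8.6 and 3.1 in libraries 1, 2 and 3, so that library 1 was the low one, while RPN2 stood at 1.8, 5.2 and 0 and PDIA3 at 1.5, 4.6 and 0.

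The row ENSOARG00000020460 carries no symbol but is described as SEC22 homolog B, a fusion protein of ER-Golgi vesicles, so the rule did not take it. It stood at 0.7, 5.4 and 0 in libraries 1, 2 and 3 (mean 2.03 ± 2.94, SD, n = 3), above SEC22A and SEC22C in libraries 1 and 2.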
